A study of Homo sapiens and Mus musculus with 22 samples.

Results

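The response to BIX-01294 (BIX) was compared between U2OS (cells of a human bone tumour, osteosarcoma) and L929 (mouse fibroblasts) to find genes that responded in 1 line only or in opposite directions. BIX inhibits EHMT1 and EHMT2, the paired methyltransferases that place mono- and dimethylation on lysine 9 of histone H3. That mark keeps genes in euchromatin silent, and both enzymes also have non-histone substrates. The compound is used to loosen this silencing and is also known to induce autophagy. The response was the log2(FPKM + 1) of the BIX value minus that of its mock partner (FPKM is fragments per kilobase of transcript, scaled to the mapped total). The 2 U2OS responses were set against the 2 L929 responses, and differences are U2OS minus L929. Of 14169 gene symbols that matched between the human and the mouse table when case was ignored, 7836 had an FPKM of at least 1 in 1 or more values of each line and are the genes described. A further 1790 matched symbols reached that level in U2OS only and 903 in L929 only, and genes with no partner of the same symbol (2132 of 11758 in U2OS, 2797 of 11536 in L929) were not compared. At the edge of the filter, PPP1R3E was kept with a highest L929 value of 1.00 FPKM, and LETM2 was left out with 0.999.

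Poly(A) RNA was sequenced in all 8 samples used for this comparison, of 22 in the series. The U2OS cells carried a vector (Vector) or an ATG5 knockdown (ATG5.KD), the gene of a core autophagy protein, and were BIX-treated or mock-treated. The L929 cells were wild type (cGAS WT) or knockout (cGAS KO) for the cytosolic DNA sensor cGAS, also with BIX or mock. The dose was 10 µM, for 12 h. Treatment notes apply BIX to every RNA sample, while names and treatment fields call 4 of these 8 mock; the names were followed. What mock cells received was not given in the sources used here. Each U2OS value stands for 2 replicates, per the labels, and each L929 value for 1 library, so the backgrounds (Vector, ATG5.KD, cGAS WT, cGAS KO) are the only units of repetition. U2OS cells were grown in RPMI and the other cells in DMEM, per the labels. Cell line, species, medium and table cannot be told apart, and a shared symbol is not proof that the genes are orthologues. Human symbols in capitals name a matched pair, and mouse spelling marks L929 values. The 2 tables were normalised separately, so levels stand side by side without comparison and only responses are compared.

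ATG5 was at 13.4 FPKM with BIX and 10.1 FPKM with mock in cells labelled ATG5.KD, against 12.3 and 11.3 FPKM in Vector cells, so its transcript was higher with BIX and lower with mock in the cells labelled as its knockdown. MB21D1, the gene of cGAS, was at 4.41 FPKM with BIX and 1.19 FPKM with mock in cells labelled cGAS KO, against 3.47 and 2.82 FPKM in cGAS WT cells. FPKM over a whole gene does not resolve small edits, so background names are used as labels and no direction is drawn from them. Relative read depth could be taken in L929 only, where the cGAS WT BIX library had 0.737 to 0.745 of the reads of the other 3. Of the osteoblast markers in the U2OS table, 5 of 9 reached 1 FPKM, with TWIST1 at 0, and 8 of 9 fibroblast markers did so in L929, with Thy1 at 0. Of epithelial markers, 4 of 6 reached 1 FPKM in U2OS, with a summed level of 605 to 1180. The 6 blood markers with a U2OS value stayed below 1 FPKM, and CD68 had no value there. Of 7 in L929, Cd68 and Lyz2 reached it, and Cd68, which macrophages and their lysosomes carry, was at 80.3 and 29.6 FPKM in BIX-treated cGAS WT and cGAS KO cells, against 41.2 and 5.11 FPKM with mock. Ptprc, which defines blood cells, was at most at 0.0873 FPKM in L929. Endothelial markers summed to at most 2.06 FPKM in U2OS and 3.65 in L929. The part of these markers in the line differences was not tested.

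The response was more alike between the U2OS backgrounds than between the L929 backgrounds. The median absolute difference between the paired responses was 0.125 in U2OS and 0.279 in L929 (log2), and 45 genes (0.574%) in U2OS and 322 (4.11%) in L929 lay at least 1 apart. Across the 7836 genes, Pearson's r was 0.935 between Vector and ATG5.KD, 0.802 between cGAS WT and cGAS KO, and 0.522 between the line means. This is a description over genes that share libraries. Each U2OS value stands for 2 replicates and each L929 value for 1 library, and the cGAS WT BIX library had fewer reads. The part of replicates and depth in these contrasts was not tested.

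With all backgrounds in the fit, the line difference did not pass the test for most genes. That does not show equal responses, because the number called depends on which backgrounds give the error. In a limma fit with an intercept per background and a BIX effect per line, the response differed for 1900 genes (24.2% of 7836, Benjamini-Hochberg adjusted p below 0.05). It was higher in U2OS for 1222 (15.6%) and lower in U2OS for 678 (8.65%). In U2OS itself 1975 genes (25.2%) rose and 1454 (18.6%) fell, and in L929 1921 (24.5%) rose and 2210 (28.2%) fell. The median response over all genes was 0.0414 in Vector, 0.0402 in ATG5.KD, -0.0490 in cGAS WT and -0.0332 in cGAS KO, so the median line difference was 0.10. With each background centred on its median, the split was 945 higher and 821 lower in U2OS. The fit has 2 residual degrees of freedom, and an exact two-sided permutation of 2 against 2 backgrounds cannot go below p = 0.333. Without Vector 314 genes were called and without ATG5.KD 243, since the spread then comes from L929 alone, against 4095 without cGAS WT and 3603 without cGAS KO. Without the FPKM filter 1461 genes were called, 711 of them among the 1900.

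By size, responses in 1 line only were found for more genes than shared ones. A gene counted as responding in 1 line only when both backgrounds of that line were at or past 1 (2-fold) in 1 direction and both of the other line lay within 0.5 of 0. In U2OS only, 80 genes were higher and 45 lower; in L929 only, 68 were higher and 121 lower. With each background centred on its median these counts were 67 and 52 in U2OS only, and 82 and 92 in L929 only, so the split in L929 depends on the centring. Opposite responses, with both backgrounds of each line at or past 0.58 (1.49-fold) in opposite directions, were found for 42 genes, 22 higher in U2OS and 20 higher in L929. With a pseudocount of 0.1 in place of 1, these were 42 and 50. Of shared 2-fold responses, 131 genes were higher in all 4 backgrounds, which is 32.0% of the 410 higher in both U2OS backgrounds and 39.9% of the 328 higher in both L929 backgrounds. Of the lower genes 34 were shared, 17.4% of 195 in U2OS and 11.5% of 296 in L929. The difference was called for 80, 43, 67 and 119 genes of the U2OS-higher, U2OS-lower, L929-higher and L929-lower classes and for all 42 opposite genes. The classes were cut from the same responses that the test used, so these counts describe them. A small response in the other line can still pass the test, so a gene of a 1-line class may have passed in both. The plot of responses in both lines shows the classes.

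**Figure D1:**
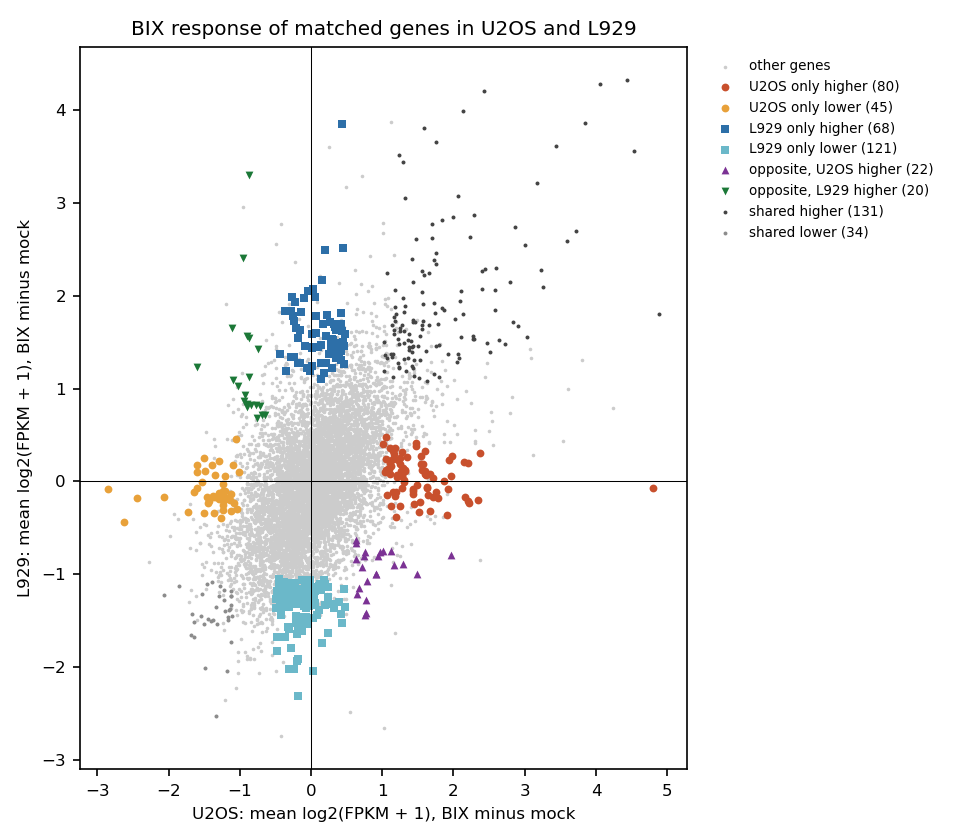
Mean BIX response of 7836 matched genes in U2OS (x axis) and L929 (y axis), in log2(FPKM + 1) BIX minus mock. Each point is a gene, colours and shapes mark the response classes with their sizes, and the 131 shared higher genes fill the upper right while the 22 and 20 opposite genes lie in the other diagonal corners.

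Among 31 gene lists, and with the FPKM filter, the largest share of called differences was in the integrated stress response, in which kinases that sense amino acid shortage, unfolded protein, haem lack or viral RNA slow translation and the factor ATF4 is made, which turns on genes for amino acid supply, tRNA charging and, through DDIT3 (CHOP), cell death. Of 45 symbols on a list of ATF4 and stress response targets, 38 were tested. The response was higher in U2OS for 21 and lower for 3 (63.2% called, against 24.2% of all genes; 18 and 3 with centred ratios). Without the FPKM filter the counts were 8 higher and 3 lower of 42, a smaller share than the 4 of 12 of the metal transport list. Without Vector they were 5 and 1, and without ATG5.KD 8 and 2. In U2OS 22 rose and 4 fell, with a list median of 0.56; in L929 11 rose and 12 fell, with a median of -0.17. The medians over all genes were 0.04 and -0.04. Of all genes 25.2% rose and 18.6% fell in U2OS, and 24.5% rose and 28.2% fell in L929, so the L929 counts of the list are near those shares. DDIT3 had 260.1 and 327 FPKM in BIX-treated Vector and ATG5.KD cells, against 8.45 and 9.36 FPKM with mock. Ddit3 had 225 and 186 FPKM in BIX-treated cGAS WT and cGAS KO cells, against 59.5 and 55.9 FPKM with mock. BIX values lay above mock without overlap in both lines, with responses of 4.79 and 4.99 in U2OS, and 1.90 and 1.71 in L929. The difference was 3.08 (SE 0.15, adjusted p = 0.00292). DDIT3 thus rose in both lines, by more in U2OS. Its human promoter, shown because DDIT3 had the second-largest difference of the list, is given from RefSeq (GRCh38.p14) as the 250 bases before the start site at chr12:57520515-57520764, minus strand, read 5′ to 3′ along the gene:

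DDIT3: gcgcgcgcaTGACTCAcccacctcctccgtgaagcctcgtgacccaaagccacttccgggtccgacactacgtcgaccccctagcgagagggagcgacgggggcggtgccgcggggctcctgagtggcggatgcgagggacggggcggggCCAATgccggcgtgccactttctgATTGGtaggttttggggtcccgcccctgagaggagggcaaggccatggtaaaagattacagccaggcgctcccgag

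Capitals mark an AP-1-type motif (TGANTCA, 234 bases before the start) and 2 CCAAT boxes (95 and 71 bases before it, the nearer on the other strand). Promoters were found for 6564 of the 7836 genes (83.8%). TGANTCA was in 3.66% of them and CCAAT in 35.3%, with both strands searched and no overlap between these motifs. TGATGNAA, the core of the composite element that CEBP and ATF factors share, was in 5 of 30 list promoters (16.7%) and in 1.34% of all. It was in 1.65% of promoters of genes higher in U2OS and 1.23% of those lower in U2OS. The cAMP response element TGACGTCA was in 3.23% of all, 1.94% of those higher and 2.46% of those lower in U2OS.

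TRIB3, a pseudokinase induced by ATF4 and DDIT3, moved in opposite directions. TRIB3 was at 33 and 37.1 FPKM in Vector and ATG5.KD cells with BIX, against 5.78 and 6.11 FPKM in their mock values. Trib3 was at 33.5 and 38.5 FPKM in cGAS WT and cGAS KO cells with BIX, against 44 and 97.3 FPKM in their mock values. U2OS values of TRIB3 with BIX were above mock without overlap, and L929 values below mock without overlap, with responses of 2.33 and 2.42 in U2OS, and -0.38 and -1.31 in L929. It rose in U2OS and fell in L929 (difference 3.22, SE 0.30, adjusted p = 0.00673). SESN2, a leucine sensor that restrains mTORC1, did the same by the test at smaller size, and by the size rule rose in U2OS only. SESN2 stood at 27.5 and 35.8 FPKM in the BIX-treated Vector and ATG5.KD values, against 12.6 and 13.9 FPKM in the mock values. Sesn2 stood at 20.7 and 18.8 FPKM in the BIX-treated cGAS WT and cGAS KO values, against 26.5 and 25.5 FPKM in the mock values. With BIX, SESN2 was above mock without overlap in U2OS and below mock without overlap in L929, with responses of 1.07 and 1.31 in U2OS, and -0.34 and -0.42 in L929. SLC3A2 is the heavy chain shared by amino acid exchangers. SLC3A2 had 394 and 414 FPKM in BIX-treated Vector and ATG5.KD cells, against 77.5 and 84.9 FPKM with mock. Slc3a2 had 158 and 170.2 FPKM in BIX-treated cGAS WT and cGAS KO cells, against 90.7 and 162 FPKM with mock. SLC3A2 values with BIX lay above mock without overlap in U2OS and in an overlapping range with mock in L929, with responses of 2.33 and 2.27 in U2OS, and 0.79 and 0.07 in L929. It rose in U2OS, and its L929 response did not pass (adjusted p = 0.0707). The aminoacyl-tRNA synthetases, which charge tRNAs with amino acids, went the same way: of 10 on the list, the response was higher in U2OS for 9 and lower for 0. Over all genes the response was higher in U2OS for 15.6%. In U2OS 7 of the 10 rose, against 25.2% of all genes. In L929 3 fell and 1 rose, where 28.2% of all genes fell and 24.5% rose. YARS, for tyrosine, rose in U2OS with responses of 1.10 and 0.92, against -0.04 and -0.37 in L929. MARS, for methionine, had 0.38 and 0.28 in U2OS and fell in L929 with -0.69 and -1.13.

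For several other members of the programme the line difference did not pass the test. ATF4 itself rose in both, with responses of 1.21 and 1.39 in U2OS and 0.79 and 1.03 in L929 (difference 0.40, adjusted p = 0.0792). PPP1R15A (GADD34), which ends the arrest of translation, had responses of 4.16 and 4.71 in U2OS and 4.22 and 4.44 in L929 (adjusted p of the difference = 0.73). GDF15, a secreted stress hormone, had 4.22 and 3.89 in U2OS and 4.20 and 4.38 in L929 (adjusted p = 0.342). ASNS, which makes asparagine, and CHAC1, which degrades glutathione, are classic ATF4 targets. Neither rose in U2OS, where ASNS had 0.04 and -0.05 and CHAC1 fell with -0.90 and -0.59; in L929 they had -0.17 and -0.50 and 0.22 and -0.52. DDIT4 (REDD1), which blocks mTORC1, fell in U2OS and rose in L929 by the test, and by the size rule fell in U2OS only. DDIT4 was at 11 and 11.2 FPKM in Vector and ATG5.KD cells with BIX, against 23.4 and 24.8 FPKM in their mock values. Ddit4 was at 13.6 and 9.0 FPKM in cGAS WT and cGAS KO cells with BIX, against 9.95 and 6.13 FPKM in their mock values. U2OS values of DDIT4 with BIX were below mock without overlap, and L929 values in an overlapping range with mock, with responses of -1.03 and -1.08 in U2OS, and 0.42 and 0.49 in L929. YARS and MARS lost their calls without Vector (adjusted p 0.0551 to 0.0558). SLC3A2 and MARS lost their calls without the FPKM filter (adjusted p 0.058 to 0.0601).

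**Figure D2:**
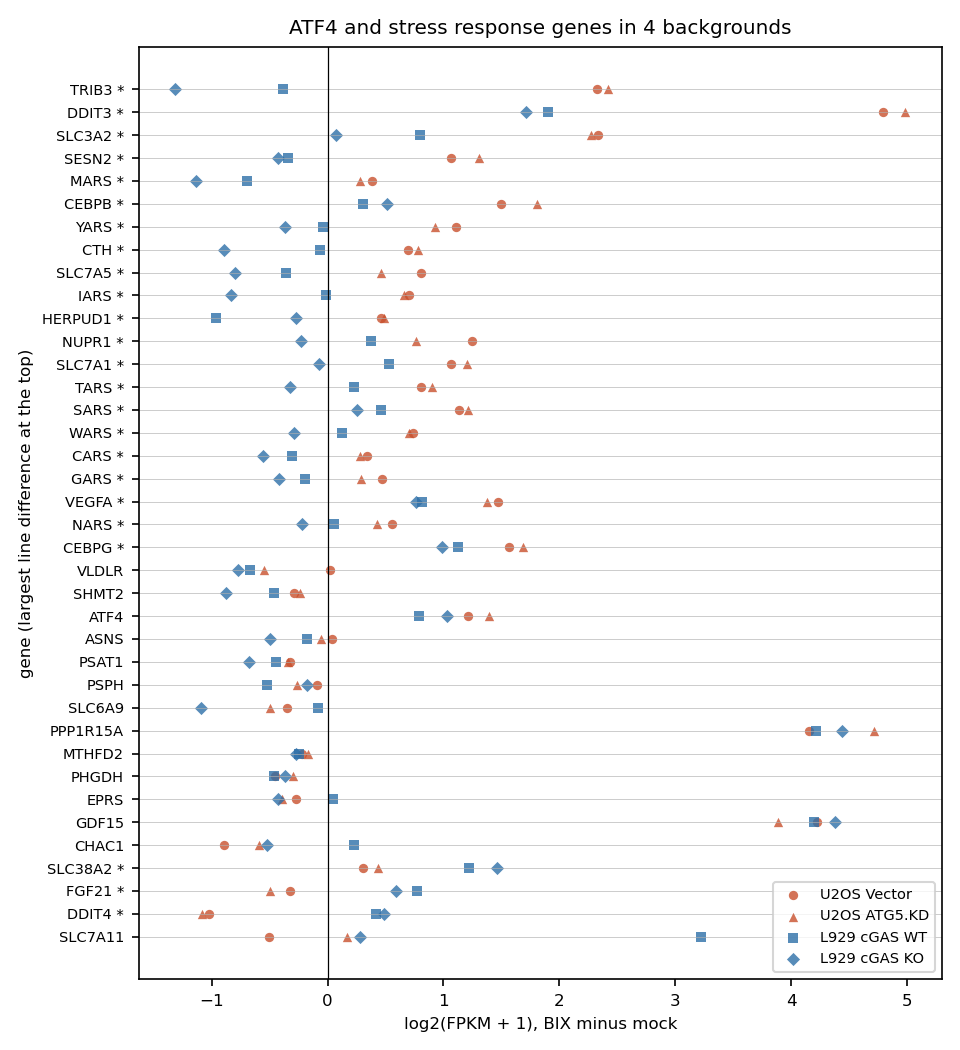
BIX response (x axis, log2(FPKM + 1) BIX minus mock) of the 38 tested genes of the ATF4 and stress response list, 1 per row, in U2OS Vector and ATG5.KD (red) and L929 cGAS WT and cGAS KO (blue). Stars mark the 24 genes whose line difference was called; 21 of them have the U2OS points to the right, from CEBPG to TRIB3.

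Most genes that cells switch on within minutes of a stimulus rose in each line. Of 27 immediate early genes tested, 26 rose and 0 fell in U2OS (median 2.43), and 23 rose and 1 fell in L929 (median 2.09); over all genes 25.2% rose in U2OS and 24.5% in L929. The difference was called higher in U2OS for 7 and lower for 5 (44.4%, against 24.2% of all genes). FOS, a subunit of the AP-1 factor, had responses of 3.68 and 5.38 in U2OS and 3.0 and 4.12 in L929. Fos was at 0.552 and 0.273 FPKM in mock cGAS WT and cGAS KO cells, below the filter of 1 FPKM. Only its BIX values (11.4 and 21.1 FPKM) kept it, and the size of its L929 response depends on the pseudocount. DUSP2, a nuclear phosphatase of MAP kinases, rose further in U2OS. DUSP2 stood at 87.5 and 98.1 FPKM in the BIX-treated Vector and ATG5.KD values, against 6.77 and 4.81 FPKM in the mock values. Dusp2 stood at 12.6 and 7.91 FPKM in the BIX-treated cGAS WT and cGAS KO values, against 6.31 and 1.69 FPKM in the mock values. BIX values lay above mock without overlap in both lines, with responses of 3.51 and 4.09 in U2OS, and 0.90 and 1.72 in L929. KLF6, a zinc finger factor, rose less in U2OS (2.21 and 1.93) than in L929 (2.66 and 3.48). Of 20 NF-kappaB and inflammatory genes, 17 rose in U2OS and 16 in L929, with 0 falling in either. The difference was called higher in U2OS for 3 and lower for 1 (20%, below the 24.2% of all genes). TNFAIP3 (A20), the feedback inhibitor of the pathway, had 2.58 and 3.78 in U2OS and 2.59 and 3.84 in L929. NFKB1, the p105 precursor of a subunit, rose more in U2OS. NFKB1 had 35.8 and 52.6 FPKM in BIX-treated Vector and ATG5.KD cells, against 8.69 and 10.8 FPKM with mock. Nfkb1 had 37.3 and 46.6 FPKM in BIX-treated cGAS WT and cGAS KO cells, against 25 and 33.7 FPKM with mock. BIX values lay above mock without overlap in both lines, with responses of 1.93 and 2.18 in U2OS, and 0.56 and 0.46 in L929. KLF6 lost the call without Vector (adjusted p = 0.0934). KLF6 lost the call without ATG5.KD (adjusted p = 0.198). DUSP2 and KLF6 lost their calls without the FPKM filter (adjusted p 0.063 to 0.174). KLF6 lost the call with a pseudocount of 0.1 (adjusted p = 0.0617). KLF6 lost the call with a constant prior variance (adjusted p = 0.0623).

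CYR61, F3 and SMAD7, which answer to YAP or TGF-beta, had lower responses in U2OS than in L929. CYR61 (CCN1), a matrix protein used as a readout of YAP, rose in both lines. CYR61 was at 267 and 247 FPKM in Vector and ATG5.KD cells with BIX, against 157 and 154 FPKM in their mock values. Cyr61 was at 151 and 216 FPKM in cGAS WT and cGAS KO cells with BIX, against 14.7 and 20.9 FPKM in their mock values. CYR61 values with BIX were above mock without overlap in both lines, with responses of 0.76 and 0.68 in U2OS, and 3.27 and 3.31 in L929. SMAD7, the inhibitory SMAD, rose in L929, and its U2OS response did not pass (adjusted p = 0.239). SMAD7 stood at 20.6 and 12.8 FPKM in the BIX-treated Vector and ATG5.KD values, against 12.8 and 9.84 FPKM in the mock values. Smad7 stood at 25.1 and 79 FPKM in the BIX-treated cGAS WT and cGAS KO values, against 3.76 and 4.37 FPKM in the mock values. L929 values with BIX lay above mock without overlap. In U2OS the lower BIX value (12.78 FPKM, ATG5.KD) all but equalled the higher mock value (12.78 FPKM, Vector). Responses were 0.65 and 0.35 in U2OS, and 2.45 and 3.90 in L929. TGFBR1, a receptor, had responses of -0.23 and -0.34 in U2OS and rose in L929 with 1.13 and 1.55. F3 (tissue factor), which starts clotting, rose in both by the test, and in L929 only by the size rule. Its responses were 0.46 and 0.39 in U2OS, and 1.88 and 1.75 in L929. As lists, YAP and TEAD targets were called higher in U2OS for 1 and lower for 5 of 14, and matrix and TGF-beta targets, which were split, for 4 and 5 of 21 (42.9% of each list, against 24.2% of all genes).

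Other genes with line differences follow, several of which met the size rule in L929 only. SOX9, a transcription factor of cartilage and progenitor cells, rose there, and its U2OS response did not pass (adjusted p = 0.195). SOX9 had 38.2 and 41.7 FPKM in BIX-treated Vector and ATG5.KD cells, against 34.9 and 34.6 FPKM with mock. Sox9 had 41.7 and 23.1 FPKM in BIX-treated cGAS WT and cGAS KO cells, against 6.55 and 3.26 FPKM with mock. BIX values lay above mock without overlap in both lines, with responses of 0.13 and 0.26 in U2OS, and 2.50 and 2.50 in L929. PHLDA1, a pleckstrin-domain protein, followed. Its U2OS responses (0.14 and 0.16) lay within 0.5 of 0, and Phlda1 was at 108 and 62.4 FPKM in BIX-treated cGAS WT and cGAS KO cells, against 21.5 and 14.2 FPKM with mock. Genes of type VI collagen met the rule for a fall in L929 only: COL6A1 had responses of -0.34 and -0.31 in U2OS and -1.57 and -1.01 in L929, and COL6A2 -0.26 and -0.16 in U2OS and -1.18 and -1.34 in L929. The collagen list had 3 members called higher in U2OS and 0 lower of 12 (25.0%, near the 24.2% of all genes). By direction, 15.6% of all genes were called higher in U2OS and 8.65% lower. HES1, a Notch target, had U2OS responses of -1.27 and -0.66 that did not pass (adjusted p = 0.0576). It rose in L929, to 22.9 and 64.7 FPKM with BIX, against 16.7 and 16.6 with mock. LBH, a transcriptional cofactor, fell steeply in U2OS. LBH was at 8.4 and 10.2 FPKM in Vector and ATG5.KD cells with BIX, against 60.3 and 64.5 FPKM in their mock values. Lbh was at 37.7 and 36.5 FPKM in cGAS WT and cGAS KO cells with BIX, against 53.1 and 47.9 FPKM in their mock values. LBH values with BIX were below mock without overlap in both lines, with responses of -2.70 and -2.55 in U2OS, and -0.48 and -0.38 in L929. COL6A1, COL6A2 and HES1 lost their calls without Vector (adjusted p 0.0534 to 0.096). COL6A1 and COL6A2 lost their calls without ATG5.KD (adjusted p 0.0784 to 0.107). SMAD7, COL6A1 and HES1 lost their calls without the FPKM filter (adjusted p 0.0915 to 0.139).

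Most cell cycle genes fell in L929, fewer passed as falling in U2OS, and where the lines differed the response was mostly higher in U2OS. Of 53 mitosis and kinetochore genes, 15 fell and 1 rose in U2OS (median -0.25), and 40 fell and 0 rose in L929 (median -0.78); over all genes 18.6% fell in U2OS and 28.2% in L929. The difference was higher in U2OS for 20 and lower for 1 (39.6%, against 24.2% of all genes; 16 and 1 with centred ratios). Of 44 DNA replication genes, 23 fell and 1 rose in U2OS (median -0.42), and 31 fell and 0 rose in L929 (median -0.67). The difference was higher in U2OS for 14 and lower for 3 (38.6%, against 24.2% of all genes, or 11 and 6 with centred ratios). In bulk RNA, fewer cycling cells and less RNA per cell cannot be told apart. The L929 fall was larger in cGAS WT, the library with fewer reads under BIX, where the mitosis median was -0.97, than in cGAS KO, where it was -0.57. CCAAT boxes were in 35 of 46 mitosis promoters (76.1%) and in 35.3% of all.

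**Figure D3:**
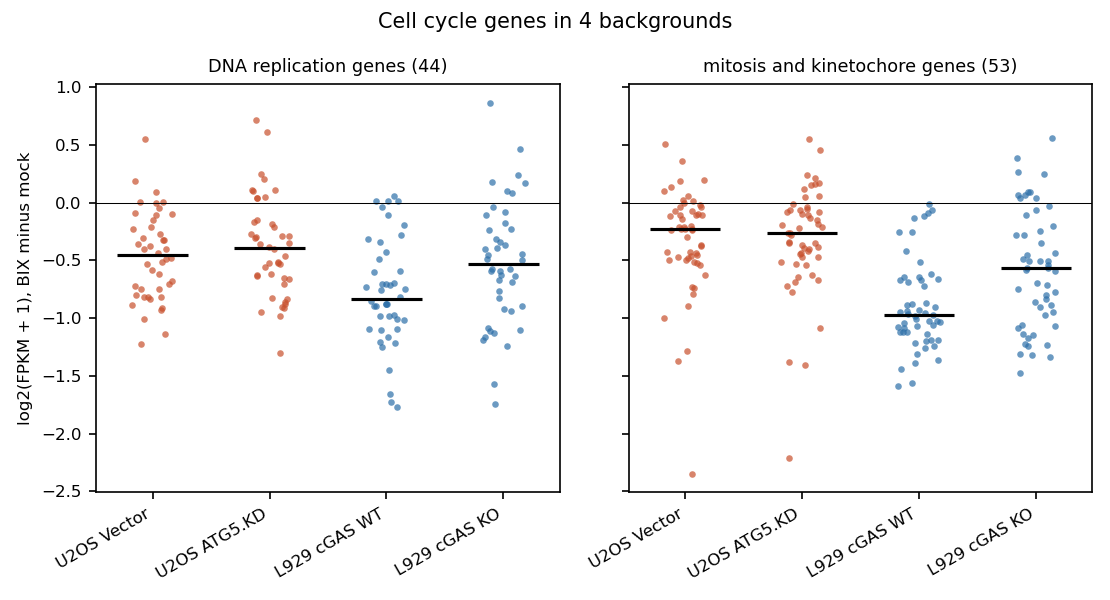
BIX response (y axis, log2(FPKM + 1) BIX minus mock) of 44 DNA replication and 53 mitosis genes in U2OS Vector and ATG5.KD (red) and L929 cGAS WT and cGAS KO (blue). Each point is a gene and bars are medians, which are at -0.23 and -0.26 for mitosis genes in Vector and ATG5.KD, against -0.97 and -0.57 in cGAS WT and cGAS KO.

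NUF2, a subunit of the NDC80 kinetochore complex, fell in L929 only by the size rule. NUF2 stood at 22.5 and 28.3 FPKM in the BIX-treated Vector and ATG5.KD values, against 24.4 and 29.6 FPKM in the mock values. Nuf2 stood at 11.5 and 12.8 FPKM in the BIX-treated cGAS WT and cGAS KO values, against 36.6 and 37.4 FPKM in the mock values. With BIX, NUF2 was in an overlapping range with mock in U2OS and below mock without overlap in L929, with responses of -0.12 and -0.06 in U2OS, and -1.59 and -1.47 in L929. SPC24, another subunit of that complex, was the exception on the list and fell more in U2OS. SPC24 had 3.56 and 4.43 FPKM in BIX-treated Vector and ATG5.KD cells, against 22.2 and 24.1 FPKM with mock. Spc24 had 9.47 and 14.9 FPKM in BIX-treated cGAS WT and cGAS KO cells, against 19.6 and 26.2 FPKM with mock. BIX values lay below mock without overlap in both lines, with responses of -2.35 and -2.21 in U2OS, and -0.97 and -0.77 in L929. RFC5, of the clamp loader, had responses of 0.01 and 0.04 in U2OS and fell in L929 with -1.77 and -1.19. CCNE1 (cyclin E) was at -0.09 and 0.61 in U2OS and fell in L929 with -1.22 and -1.24. UHRF1, which brings the maintenance methyltransferase DNMT1 to replicated DNA, fell in both, with -0.49 and -0.62 in U2OS and -1.73 and -1.74 in L929, and DNMT1 did so with -0.36 and -0.31 in U2OS and -0.88 and -0.92 in L929. WEE1, the kinase that holds CDK1 inactive before mitosis, moved in opposite directions. WEE1 was at 45.8 and 57.3 FPKM in Vector and ATG5.KD cells with BIX, against 21.1 and 23.5 FPKM in their mock values. Wee1 was at 13.8 and 19.7 FPKM in cGAS WT and cGAS KO cells with BIX, against 30.1 and 33.2 FPKM in their mock values. U2OS values of WEE1 with BIX were above mock without overlap, and L929 values below mock without overlap, with responses of 1.08 and 1.25 in U2OS, and -1.08 and -0.72 in L929. It rose in U2OS and fell in L929 (difference 2.07, SE 0.18, adjusted p = 0.00618).

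Of 23 p53 target genes, 15 rose and 2 fell in U2OS, and 13 rose and 5 fell in L929. Over all genes 25.2% rose in U2OS, and 24.5% rose and 28.2% fell in L929. The difference was called higher in U2OS for 6 and lower for 3 (39.1%, against 24.2% of all genes). CDKN1A (p21) had responses of 1.58 and 1.92 in U2OS and 2.04 and 2.64 in L929, and GADD45A had 3.45 and 3.98 in U2OS and 3.15 and 2.25 in L929; neither difference passed (adjusted p = 0.109 and 0.0646). PLK2, a polo-like kinase of the stress checkpoint, rose in L929 and not in U2OS (adjusted p = 0.528 there). PLK2 stood at 52.2 and 78.3 FPKM in the BIX-treated Vector and ATG5.KD values, against 55.6 and 51.8 FPKM in the mock values. Plk2 stood at 349 and 311 FPKM in the BIX-treated cGAS WT and cGAS KO values, against 17.5 and 38.6 FPKM in the mock values. With BIX, PLK2 was in an overlapping range with mock in U2OS and above mock without overlap in L929, with responses of -0.09 and 0.59 in U2OS, and 4.24 and 2.98 in L929. MDM2, the ubiquitin ligase of p53, rose in both and less in U2OS (0.83 and 0.78) than in L929 (1.86 and 2.24). BAK1, a pore-forming BCL2 family member, rose in U2OS with 0.75 and 0.99 and fell in L929 with -0.61 and -0.50. UHRF1 and DNMT1 lost their calls without Vector (adjusted p 0.0654 to 0.286). CCNE1, MDM2 and DNMT1 lost their calls without ATG5.KD (adjusted p 0.0575 to 0.343). RFC5, CCNE1 and PLK2 lost their calls without the FPKM filter (adjusted p 0.0602 to 0.0757). DNMT1 lost the call with centred ratios (adjusted p = 0.0553). DNMT1 lost the call with a constant prior variance (adjusted p = 0.051).

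Period genes of the circadian clock separated the lines. The clock is a loop in which CLOCK with its partner activates PER and CRY genes from E-boxes and their proteins repress it. Of 13 clock genes, 9 rose and 1 fell in U2OS, and 8 rose and 1 fell in L929. Of all genes 25.2% rose and 18.6% fell in U2OS, and 24.5% rose and 28.2% fell in L929. The difference was called higher in U2OS for 3 clock genes and lower for 3 (46.2%, against 24.2% of all genes). The 3 higher were the period genes. PER1 had 29.3 and 34.4 FPKM in BIX-treated Vector and ATG5.KD cells, against 8.25 and 6.89 FPKM with mock. Per1 had 9.86 and 17.1 FPKM in BIX-treated cGAS WT and cGAS KO cells, against 9.43 and 12.7 FPKM with mock. PER1 values with BIX lay above mock without overlap in U2OS and in an overlapping range with mock in L929, with responses of 1.71 and 2.17 in U2OS, and 0.06 and 0.40 in L929. PER2 was at 9.29 and 8.66 FPKM in BIX-treated Vector and ATG5.KD cells, against 2.79 and 1.75 FPKM with mock, and Per2 at 4.93 and 6.62 FPKM in BIX-treated cGAS WT and cGAS KO cells, against 4.3 and 8.29 FPKM with mock. PER3 rose in U2OS (0.70 and 0.62) and fell in L929 (-0.53 and -1.25). CLOCK was at 0.06 and 0.0 in U2OS and rose in L929 with 0.82 and 1.20. NR1D1 (REV-ERB-alpha), a repressor in a second loop, rose in both, with 2.44 and 2.75 in U2OS and 1.90 and 2.70 in L929. The samples were taken at 12 h of BIX, and the clock phase was not recorded in the sources used here. The PER1 promoter is shown because the gene rose in U2OS alone by the size rule and holds CACGTG, the E-box that CLOCK is known to bind (GRCh38.p14, chr17:8152405-8152654, minus strand):

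PER1: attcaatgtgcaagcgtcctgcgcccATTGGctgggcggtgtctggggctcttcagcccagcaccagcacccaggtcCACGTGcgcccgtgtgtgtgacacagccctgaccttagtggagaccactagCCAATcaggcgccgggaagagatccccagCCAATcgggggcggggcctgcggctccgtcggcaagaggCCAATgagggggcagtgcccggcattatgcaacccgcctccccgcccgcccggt

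Capitals mark the E-box CACGTG, 167 bases before the start, and 4 CCAAT boxes on either strand; the motifs do not overlap. CACGTG was in 4 of 13 clock gene promoters (30.8%) and in 9.19% of all. Among genes higher in U2OS it was in 7.86%, and among those lower in U2OS in 7.75%. CLOCK and PER3 lost their calls without Vector (adjusted p 0.0674 to 0.119). PER2, CLOCK and PER3 lost their calls without ATG5.KD (adjusted p 0.0558 to 0.145). PER1, PER2, CLOCK and PER3 lost their calls without the FPKM filter (adjusted p 0.0531 to 0.0771).

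Protein folding genes of the endoplasmic reticulum were called at near the share of all genes, and all those called were higher in U2OS. The called genes of the cytosol were split. Over all genes 25.2% rose and 18.6% fell in U2OS, and 24.5% rose and 28.2% fell in L929. Of 30 genes of endoplasmic reticulum chaperones and degradation, 5 rose and 5 fell in U2OS (median 0.13), and 3 rose and 18 fell in L929 (median -0.49). The difference was called higher in U2OS for 8 and lower for 0 (26.7%, near the 24.2% of all genes). Of all genes 15.6% were called higher in U2OS and 8.65% lower, so the called genes of the list lay on the higher side only. SYVN1 (HRD1), the ligase of degradation from that membrane, fell in L929. SYVN1 was at 21.8 and 18.7 FPKM in Vector and ATG5.KD cells with BIX, against 23 and 20.8 FPKM in their mock values. Syvn1 was at 20.1 and 6.05 FPKM in cGAS WT and cGAS KO cells with BIX, against 47 and 22.7 FPKM in their mock values. U2OS values of SYVN1 with BIX were in an overlapping range with mock, and L929 values below mock without overlap, with responses of -0.07 and -0.14 in U2OS, and -1.19 and -1.75 in L929. DNAJC3, an inhibitor of the stress kinase PERK, had 0.38 and 0.30 in U2OS and fell in L929 with -1.44 and -0.54. Of 26 cytosolic heat shock genes, 8 rose and 5 fell in U2OS, and 12 rose and 3 fell in L929. The difference was called higher in U2OS for 4 and lower for 6 (38.5%, against 24.2% of all genes). HSPB8, a small heat shock protein, was 1 of the 4 and rose in both lines, with 2.28 and 2.74 in U2OS and 1.30 and 1.49 in L929. Of the 6 lower, HSPH1 (HSP110) fell in U2OS and rose in L929. HSPH1 stood at 31 and 37.6 FPKM in the BIX-treated Vector and ATG5.KD values, against 45.5 and 51.2 FPKM in the mock values. Hsph1 stood at 96.3 and 70.2 FPKM in the BIX-treated cGAS WT and cGAS KO values, against 48.4 and 29.1 FPKM in the mock values. With BIX, HSPH1 was below mock without overlap in U2OS and above mock without overlap in L929, with responses of -0.54 and -0.43 in U2OS, and 0.98 and 1.24 in L929. HSPA8, the constitutive HSP70, fell in U2OS to 195 and 186 FPKM in BIX-treated Vector and ATG5.KD cells, against 664 and 794 FPKM with mock; its L929 responses were -0.05 and -0.65 (adjusted p = 0.0989). DNAJB4, a co-chaperone, had -0.32 and -0.30 in U2OS and rose in L929 with 0.82 and 2.13. SYVN1 and DNAJC3 lost their calls without Vector (adjusted p 0.0558 to 0.0901). DNAJB4, SYVN1, DNAJC3 and HSPB8 lost their calls without ATG5.KD (adjusted p 0.0509 to 0.0868). DNAJB4, SYVN1, DNAJC3, HSPA8 and HSPB8 lost their calls without the FPKM filter (adjusted p 0.0655 to 0.138).

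The sterol, lipid, NRF2 and hypoxia lists held 15.0% to 21.9% called genes, below the 24.2% of all genes. HMGCS1, an early enzyme of cholesterol synthesis, rose in U2OS. HMGCS1 had 33.8 and 161 FPKM in BIX-treated Vector and ATG5.KD cells, against 14 and 41.6 FPKM with mock. Hmgcs1 had 36.8 and 63.2 FPKM in BIX-treated cGAS WT and cGAS KO cells, against 39.3 and 45.2 FPKM with mock. BIX values lay in an overlapping range with mock in both lines, with responses of 1.22 and 1.93 in U2OS, and -0.09 and 0.47 in L929. INSIG2, which holds the sterol sensor in the membrane, fell in U2OS (-0.44 and -0.57) and rose in L929 (0.88 and 0.92). Of 23 sterol genes 2 were called higher and 3 lower in U2OS (2 and 6 with centred ratios). AGPAT2, of triglyceride synthesis, and PLIN3, a lipid droplet coat, fell in L929. AGPAT2 had responses of -0.15 and -0.09 in U2OS and -1.12 and -2.11 in L929, and PLIN3 0.11 and 0.30 in U2OS and -1.14 and -1.53 in L929. TXNRD1 (thioredoxin reductase), a target of the antioxidant factor NRF2, rose in L929. TXNRD1 was at 47.9 and 50.4 FPKM in Vector and ATG5.KD cells with BIX, against 49.5 and 62.8 FPKM in their mock values. Txnrd1 was at 242 and 185 FPKM in cGAS WT and cGAS KO cells with BIX, against 74.9 and 69.1 FPKM in their mock values. U2OS values of TXNRD1 with BIX were in an overlapping range with mock, and L929 values above mock without overlap, with responses of -0.05 and -0.31 in U2OS, and 1.68 and 1.40 in L929. OSGIN1, also an NRF2 target, rose in U2OS instead, with 1.22 and 1.04, against -0.16 and -0.38 in L929; of 20 NRF2 targets 1 was called higher and 3 lower. ODC1, the rate-limiting enzyme of polyamine synthesis, rose in U2OS (0.80 and 0.91) and was at -0.06 and -0.40 in L929. SLC30A1, a zinc exporter, rose in both, with 2.38 and 2.90 in U2OS and 1.13 and 1.92 in L929. It is on the list of metallothioneins and metal transport, of which 2 of 9 were called higher and 3 lower in U2OS (55.6%). Among the 3, SLC39A6, a zinc importer, had -0.10 and -0.19 in U2OS and rose in L929 with 0.82 and 0.95. Among 32 hypoxia and glycolysis genes 2 were called higher and 5 lower. Genes of the respiratory chain (5 higher, 0 lower of 43), the proteasome (3 and 1 of 32), ribosome synthesis (5 and 3 of 34) and cytosolic ribosomal proteins (0 and 1 of 40) were called below or near the background of 24.2%. The called ribosomal protein gene was RPL7A, with -0.44 and -0.17 in U2OS and 0.14 and 0.22 in L929. AGPAT2, OSGIN1, SLC30A1, RPL7A and SLC39A6 lost their calls without Vector (adjusted p 0.0521 to 0.22). HMGCS1, AGPAT2, SLC30A1, RPL7A and SLC39A6 lost their calls without ATG5.KD (adjusted p 0.0548 to 0.222). RPL7A lost the call without cGAS KO (adjusted p = 0.0692). HMGCS1, AGPAT2, ODC1, SLC30A1 and RPL7A lost their calls without the FPKM filter (adjusted p 0.0544 to 0.171). SLC30A1 lost the call with centred ratios (adjusted p = 0.058). SLC30A1 and RPL7A lost their calls with a constant prior variance (adjusted p 0.0572 to 0.0966).

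**Figure D4:**
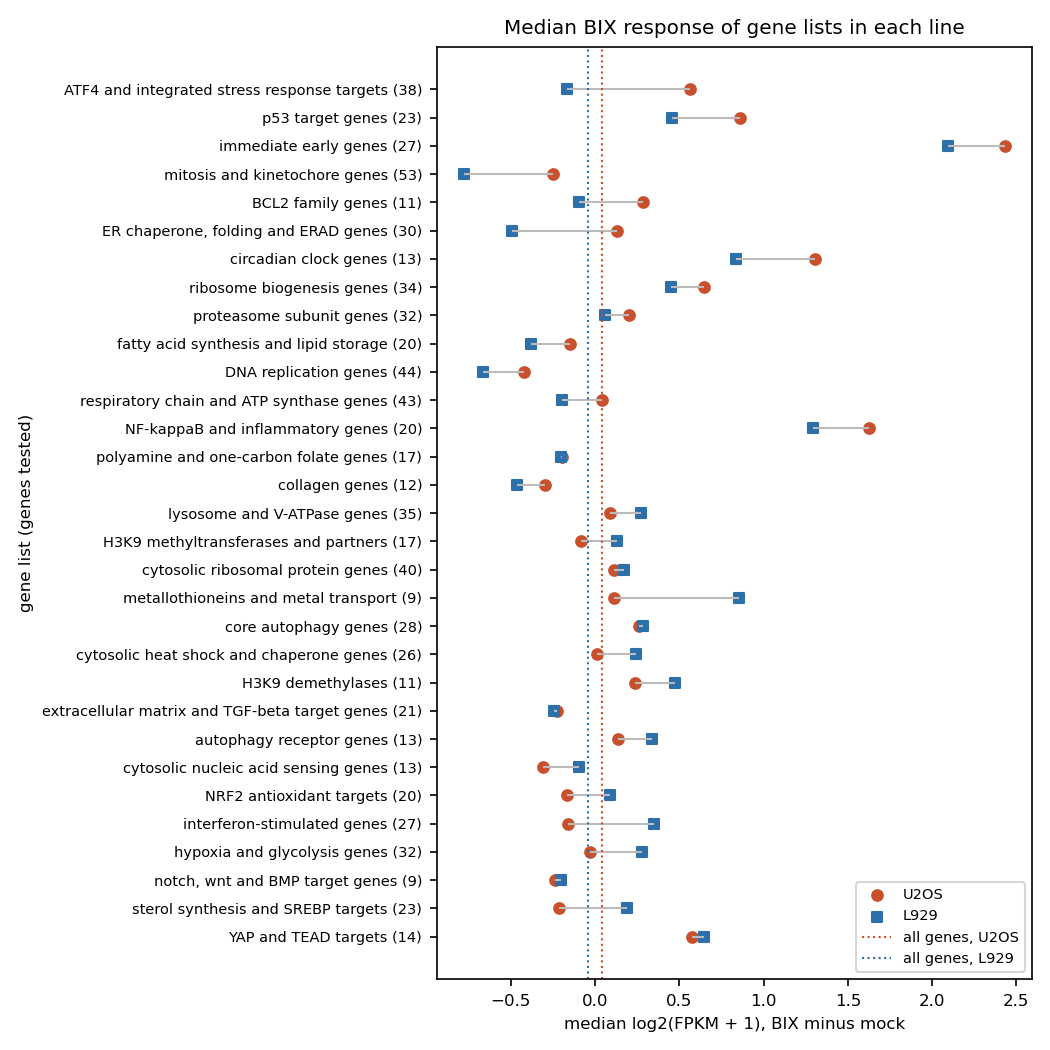
Median BIX response (x axis, log2(FPKM + 1) BIX minus mock) of 31 gene lists in U2OS (red circles) and L929 (blue squares), ordered by the median line difference, with the number of genes tested and dotted lines for all genes. Immediate early genes have the highest medians in both lines (2.43 in U2OS and 2.09 in L929), and the ATF4 list lies at 0.56 in U2OS and -0.17 in L929.

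Part of the autophagy genes rose in each line, where 25.2% of all genes rose in U2OS and 24.5% in L929. Of 28 core autophagy genes 11 rose and 2 fell in U2OS, and 12 rose and 4 fell in L929, with medians of 0.26 and 0.28; 6 were called higher in U2OS and 2 lower (28.6%, near the 24.2% of all genes). MAP1LC3B, whose protein is conjugated to lipid on the growing autophagosome, rose more in U2OS. MAP1LC3B stood at 213 and 265 FPKM in the BIX-treated Vector and ATG5.KD values, against 49.8 and 54 FPKM in the mock values. Map1lc3b stood at 53.7 and 151 FPKM in the BIX-treated cGAS WT and cGAS KO values, against 32.7 and 63.2 FPKM in the mock values. With BIX, MAP1LC3B was above mock without overlap in U2OS and in an overlapping range with mock in L929, with responses of 2.08 and 2.28 in U2OS, and 0.70 and 1.24 in L929. ATG12, which is joined to ATG5 to drive that conjugation, did as well, with 1.54 and 1.76 in U2OS and 0.51 and 0.35 in L929. GABARAPL1, of the same family as MAP1LC3B, rose less in U2OS (0.96 and 1.29) than in L929 (1.76 and 1.96). TFEB, the master factor of lysosome genes, rose in U2OS (0.64 and 0.87) and fell in L929 (-1.28 and -0.40). Of 35 lysosome and V-ATPase genes, however, 14 rose in U2OS and 16 in L929, with 6 called higher and 2 lower (22.9%). NAGLU, a lysosomal hydrolase, had -0.37 and -0.27 in U2OS and fell in L929 with -1.31 and -1.82. NAGLU and GABARAPL1 lost their calls without Vector (adjusted p 0.0908 to 0.308). ATG12, MAP1LC3B, TFEB, NAGLU and GABARAPL1 lost their calls without ATG5.KD (adjusted p 0.0707 to 0.117). MAP1LC3B, TFEB, NAGLU and GABARAPL1 lost their calls without the FPKM filter (adjusted p 0.0712 to 0.0988).

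TAP1 and PSMB8, of antigen presentation, fell in L929. Of 27 interferon-stimulated genes tested, 10 had L929 responses at least 1 apart between backgrounds and 0 had U2OS responses so far apart. That held for 4.11% of all genes in L929 and 0.574% in U2OS, so the 0 in U2OS is near its share. IFIT1, which binds foreign RNA, was at 0.566 and 0.358 FPKM in BIX-treated Vector and ATG5.KD cells, against 2.15 and 1.54 FPKM with mock. Ifit1 was at 67.5 FPKM in BIX-treated cGAS WT cells, against 0.179 FPKM with mock, but at 0.106 FPKM in BIX-treated cGAS KO cells, against 0.071 FPKM with mock. ISG15, a ubiquitin-like modifier, had responses of 4.14 and 0.59 in cGAS WT and cGAS KO, and neither line difference passed (adjusted p = 0.129 and 0.109). The 27 tested are of 55 on the list; 3 were called higher and 5 lower in U2OS (29.6%, near the 24.2% of all genes). DDX58 (RIG-I), the sensor of viral RNA, fell in U2OS with -0.71 and -0.38 and rose in L929 with 1.49 and 1.68. TAP1, the peptide transporter that loads MHC class I molecules, had opposite responses. TAP1 had 15 and 13.7 FPKM in BIX-treated Vector and ATG5.KD cells, against 8.77 and 8.73 FPKM with mock. Tap1 had 6.26 and 4.77 FPKM in BIX-treated cGAS WT and cGAS KO cells, against 14.5 and 13.5 FPKM with mock. TAP1 values with BIX lay above mock without overlap in U2OS and below mock without overlap in L929, with responses of 0.71 and 0.59 in U2OS, and -1.10 and -1.33 in L929. It rose in U2OS and fell in L929 (difference 1.86, SE 0.18, adjusted p = 0.00692). Its promoter is shown for the interferon motif that it holds (GRCh38.p14, chr6:32853705-32853954, minus strand):

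TAP1: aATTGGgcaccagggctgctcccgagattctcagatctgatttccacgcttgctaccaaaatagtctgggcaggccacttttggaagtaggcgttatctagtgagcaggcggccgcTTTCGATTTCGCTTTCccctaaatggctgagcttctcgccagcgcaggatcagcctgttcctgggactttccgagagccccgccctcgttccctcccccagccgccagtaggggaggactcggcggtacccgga

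Capitals mark 2 overlapping matches to GAAANNGAAA on the other strand, a stretch that interferon regulatory factors are known to bind, 124 and 118 bases before the start, and a CCAAT box 244 bases before it, also on the other strand. GAAANNGAAA was in 11 of 23 interferon-stimulated gene promoters (47.8%) and in 2.12% of all. PSMB8, an immunoproteasome subunit that cuts peptides for TAP1, was at 0.13 and -0.15 in U2OS and fell in L929 (-0.77 and -1.24). Both genes are listed more than once in a table, and the entry with the highest mean was used. IRF3, the factor downstream of cGAS, and MAVS, the adaptor of RIG-I, fell in L929. IRF3 had 0.28 and 0.34 in U2OS and -0.53 and -1.37 in L929, and MAVS, which fell in both lines, -0.38 and -0.55 in U2OS and -1.21 and -1.18 in L929. PSMB8, IRF3 and MAVS lost their calls without Vector (adjusted p 0.0833 to 0.297). PSMB8, IRF3 and MAVS lost their calls without ATG5.KD (adjusted p 0.0974 to 0.197). PSMB8, IRF3 and MAVS lost their calls without the FPKM filter (adjusted p 0.0531 to 0.122).

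For the targets of the study and of the compound the line difference did not pass the test. ATG5 had responses of 0.11 and 0.38 in U2OS and 0.03 and 0.12 in L929 (adjusted p of the difference = 0.501), and EHMT1 -0.05 and -0.04 in U2OS and -0.25 and -0.16 in L929 (adjusted p = 0.506). SETDB1, which trimethylates the same lysine, had 0.11 and 0.25 in U2OS and 0.08 and 0.17 in L929 (adjusted p = 0.826). MB21D1 did not pass either (adjusted p of the difference = 0.229). EHMT2 lies in a joined row of the human table and was not matched. Of 17 genes for writers of lysine 9 methylation and their partners, 2 were called higher and 3 lower in U2OS (29.4%, near the 24.2% of all genes). ATF7IP, a partner of SETDB1, had -0.10 and -0.42 in U2OS and rose in L929 (0.73 and 1.01). KDM1A (LSD1) was the 1 called gene of 11 demethylases, at -0.24 and -0.25 in U2OS and rising in L929 with 0.45 and 0.50. ATF7IP and KDM1A lost their calls without Vector (adjusted p 0.0514 to 0.198). ATF7IP and KDM1A lost their calls without ATG5.KD (adjusted p 0.121 to 0.212). ATF7IP lost the call without the FPKM filter (adjusted p = 0.0607).

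The remaining genes that rose in U2OS only included GPNMB, a glycoprotein of lysosomes and melanosomes. GPNMB was at 35.7 and 24.2 FPKM in Vector and ATG5.KD cells with BIX, against 4.62 and 5.42 FPKM in their mock values. Gpnmb was at 372 and 185 FPKM in cGAS WT and cGAS KO cells with BIX, against 377 and 241 FPKM in their mock values. U2OS values of GPNMB with BIX were above mock without overlap, and L929 values in an overlapping range with mock, with responses of 2.71 and 1.97 in U2OS, and -0.02 and -0.38 in L929. SPHK1, which makes sphingosine 1-phosphate, was at 32.1 and 51.7 FPKM in BIX-treated Vector and ATG5.KD cells, against 8.08 and 8.12 FPKM with mock, and had L929 responses of 0.0 and -0.42. GAS2L3, a linker of actin and microtubules, had 2.13 and 2.19 in U2OS and -0.14 and -0.19 in L929, and AVPI1, a vasopressin-induced gene, 2.15 and 1.66 in U2OS and -0.33 and -0.39 in L929.

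Genes that fell in U2OS only were led by FOXS1, a forkhead factor. FOXS1 stood at 0.605 and 1.05 FPKM in the BIX-treated Vector and ATG5.KD values, against 9.44 and 15.4 FPKM in the mock values. Foxs1 stood at 20.2 and 18.8 FPKM in the BIX-treated cGAS WT and cGAS KO values, against 17.8 and 24 FPKM in the mock values. With BIX, FOXS1 was below mock without overlap in U2OS and in an overlapping range with mock in L929, with responses of -2.70 and -3.0 in U2OS, and 0.18 and -0.34 in L929. FAM120B, described as a coactivator of PPAR-gamma, was at 1.93 and 1.34 FPKM in BIX-treated Vector and ATG5.KD cells, against 14.2 and 12.3 FPKM with mock, and had L929 responses of -0.04 and -0.32. PYCRL, of proline synthesis, had -1.81 and -1.39 in U2OS and -0.04 and 0.39 in L929. MED11, of the Mediator complex, had -1.54 and -1.46 in U2OS and 0.37 and 0.13 in L929. In L929 only, EFNB3, an ephrin ligand, rose to 8.94 and 9.82 FPKM in BIX-treated cGAS WT and cGAS KO cells, against 2.21 and 1.15 FPKM with mock, and FAM189B had responses of -0.10 and -0.10 in U2OS and 1.23 and 2.71 in L929. Genes that fell in L929 only included MIIP, an inhibitor of cell migration. MIIP had 12.6 and 14.1 FPKM in BIX-treated Vector and ATG5.KD cells, against 14.8 and 15.9 FPKM with mock. Miip had 1.66 and 0.692 FPKM in BIX-treated cGAS WT and cGAS KO cells, against 13.1 and 6.88 FPKM with mock. BIX values lay below mock without overlap in both lines, with responses of -0.21 and -0.17 in U2OS, and -2.40 and -2.22 in L929. CAMSAP3, which caps microtubule minus ends, had 0.09 and -0.04 in U2OS and -1.58 and -2.51 in L929, and HCN2, a pacemaker channel, 0.49 and 0.38 in U2OS and -1.81 and -1.23 in L929. NANP, of sialic acid synthesis, had 0.31 and 0.01 in U2OS and -1.21 and -2.27 in L929, and SLC41A3, of a magnesium transporter family, 0.20 and 0.27 in U2OS and -1.39 and -1.88 in L929. NANP lost the call without Vector (adjusted p = 0.0551). SPHK1, PYCRL, EFNB3, FAM189B, CAMSAP3 and NANP lost their calls without the FPKM filter (adjusted p 0.0502 to 0.131).

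Besides WEE1 and TAP1, the leading opposite genes with U2OS higher were NAA10, the catalytic subunit of an N-terminal acetyltransferase, GLRX (glutaredoxin), DDX11, a helicase of sister chromatid cohesion, and ADORA2B, an adenosine receptor. NAA10 was at 6.91 and 9.63 FPKM in Vector and ATG5.KD cells with BIX, against 2.01 and 2.52 FPKM in their mock values. Naa10 was at 24.9 and 36.7 FPKM in cGAS WT and cGAS KO cells with BIX, against 56.2 and 66.6 FPKM in their mock values. U2OS values of NAA10 with BIX were above mock without overlap, and L929 values below mock without overlap, with responses of 1.39 and 1.59 in U2OS, and -1.14 and -0.84 in L929. GLRX was at 53.7 and 50.4 FPKM in BIX-treated Vector and ATG5.KD cells, against 30.8 and 29.4 FPKM with mock, and Glrx at 15.8 and 10.7 FPKM in BIX-treated cGAS WT and cGAS KO cells, against 37.6 and 29.2 FPKM with mock. ADORA2B had responses of 0.67 and 1.16 in U2OS and -1.02 and -0.98 in L929. DDX11 (0.87 and 0.67 in U2OS and -1.52 and -1.32 in L929) has near-identical copies in the human genome, so its U2OS values are uncertain. With L929 higher, LIN7B, a scaffold of cell polarity, had the largest difference of the opposite genes named here. Its L929 mock values lay below the filter of 1 FPKM, so only its BIX values kept it. The size of its L929 response depends on the pseudocount. LIN7B stood at 3.38 and 2.92 FPKM in the BIX-treated Vector and ATG5.KD values, against 7.57 and 5.65 FPKM in the mock values. Lin7b stood at 8.54 and 23.8 FPKM in the BIX-treated cGAS WT and cGAS KO values, against 0.657 and 0.481 FPKM in the mock values. With BIX, LIN7B was below mock without overlap in U2OS and above mock without overlap in L929, with responses of -0.97 and -0.76 in U2OS, and 2.53 and 4.07 in L929. Its fall in U2OS did not pass (adjusted p = 0.0818), with an error (SE 0.34) pooled with the wider L929 pair. ZMYM1, a zinc finger gene, fell in U2OS and rose in L929. ZMYM1 had 3.16 and 2.83 FPKM in BIX-treated Vector and ATG5.KD cells, against 6.48 and 6.92 FPKM with mock. Zmym1 had 36 and 48.5 FPKM in BIX-treated cGAS WT and cGAS KO cells, against 7.07 and 7.06 FPKM with mock. ZMYM1 values with BIX lay below mock without overlap in U2OS and above mock without overlap in L929, with responses of -0.85 and -1.05 in U2OS, and 2.20 and 2.62 in L929. ENC1, a kelch-repeat adaptor, had U2OS responses of -1.15 and -1.08, and Enc1 was at 30.5 and 35.9 FPKM in BIX-treated cGAS WT and cGAS KO cells, against 11.2 and 8.65 FPKM with mock. PLAT, the tissue plasminogen activator, had -0.86 and -0.87 in U2OS and 2.13 and 0.97 in L929, and CCDC117 had -0.77 and -0.71 in U2OS and 1.10 and 1.77 in L929. LIN7B and PLAT lost their calls without the FPKM filter (adjusted p 0.0586 to 0.0771).

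**Figure D5:**
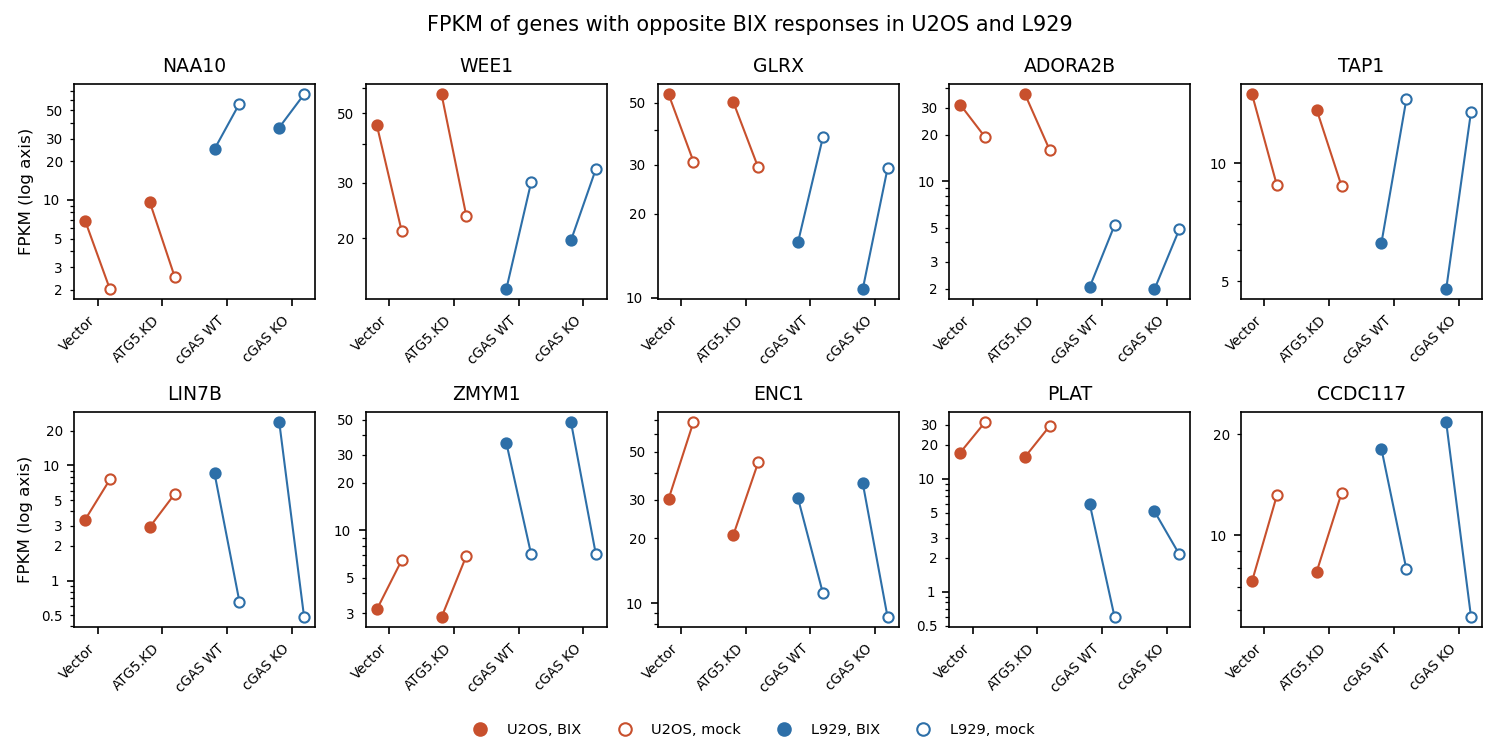
FPKM (y axis, log scale, 1 panel per gene) of 10 genes with opposite BIX responses, in U2OS (red) and L929 (blue), with BIX (filled) left of mock (open) in each background. In the upper row BIX is above mock in both U2OS backgrounds and below it in both L929 backgrounds; the lower row shows the reverse, with Lin7b at 8.54 and 23.8 FPKM under BIX.

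A separate set of libraries, mock-treated U2OS cells with SETDB1 knockout (KO1 and KO2) or wild type, 2 libraries each, was used as a readout that the line comparison did not touch. SETDB1 itself was at 5.90, 6.89, 7.03 and 7.35 FPKM in the libraries labelled knockout, against 9.32 and 9.98 FPKM in wild type, without overlap (log2 -0.45, SE 0.11, adjusted p = 0.0506). Of 7638 described genes also tested there, 73 (0.956%) were called in a limma fit of the knockouts against wild type. Among genes whose BIX response was lower in U2OS the share was 2.59% (6 higher and 11 lower of 656), against 0.505% of those higher in U2OS (2 and 4 of 1188) and 0.863% of genes not called. Of the 45 genes that fell under BIX in U2OS only by the size rule, DDIT4, FOXS1 and LBH were called, all lower in the knockouts. FOXS1 was at 5.19, 6.36, 7.63 and 6.69 FPKM in the knockout libraries, against 15.8 and 13.4 FPKM in wild type, with no overlap (log2 -1.07, SE 0.12, adjusted p = 0.000350). LBH was at 56.9 to 68.2 FPKM in the knockouts, against 101 and 99.0 FPKM in wild type (log2 -0.71, adjusted p = 0.000785). DDIT4 was at 14 to 14.9 FPKM in the knockouts, against 25.8 and 19.95 FPKM in wild type (log2 -0.62, adjusted p = 0.01). Of the 77 genes higher under BIX in U2OS only that were tested there, SYNE1, a nuclear envelope protein, rose in the knockouts (log2 0.62) and ADAMTS1, a matrix protease, fell (log2 -0.56). The knockouts are labelled as 2 lines, and nothing says that libraries came from separate cultures, so these p values cover the spread between libraries.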

How the data were processed

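Per the labels' protocols, poly(A) RNA was selected with oligo-dT beads, made into TruSeq libraries and sequenced as 100 bp paired ends. Per the submitters' processing notes, the authors used FastQC, cutadapt, TopHat2 and Cufflinks on hg19 or mm10. Versions, annotation and strandedness were not given in the sources used here. FPKM values were deposited by the authors in 1 table per set, and columns summed to 445281 to 564050 over U2OS and L929. FPKM carries no read counts, so depth is known only as relative reads in L929, from the steps of values under 0.3, and it sets no error here. FPKM is relative, so large changes in a few genes shift the rest.

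Rows that join several symbols with commas were left out (1482 in the U2OS and 355 in the L929 table). Of a symbol listed more than once (315 genes) the entry with the highest mean was kept, and 7 short RNA genes were kept. Values were used as log2(FPKM + 1), which understates changes of low genes. limma 3.58.1 in R 4.3.3 was fitted on all 7836 genes with eBayes and a trend on expression (2 residual and a median of 4.27 prior degrees of freedom), with Benjamini-Hochberg adjustment over them. The error is how far the backgrounds of a line differ, pooled over both lines. The SETDB1 set was fitted on 12267 genes of its own table, with 284 higher and 83 lower in the knockouts. The scripts were tested on simulated data. Chromatin samples were not analysed here.

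The members and the 31 lists were chosen with earlier results of these data known. Some genes that the rule below names are not reported here. Named genes were up to 5 per class and 2 called members per list with the largest differences and FPKM of at least 5 in each line, plus the targets ATG5, MB21D1, EHMT1 and SETDB1. ASNS, ATF4, CDKN1A, CHAC1, CLOCK, DDX58, DNMT1, FOS, GABARAPL1, GADD45A, GDF15, HSPB8, IFIT1, ISG15, KLF6, MARS, MDM2, NR1D1, PER3, PPP1R15A, SLC3A2, SLC39A6, HSPA8, TGFBR1, TNFAIP3 and YARS, and the genes named from the SETDB1 set, were chosen after their values were seen. Alternatives covered the pseudocount, FPKM filters, centring, the prior variance, weights, repeated symbols, short RNAs, the replicate block of the SETDB1 set and leaving out each background or library.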

Additional observations from a re-analysis of the deposited data

Results flagged for a closer look

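For 86 named genes the BIX response differed between U2OS and L929 by the test of the difference itself, with limma adjusted p values from 0.00292 to 0.0477. These are differences between cell lines of 2 species, with 2 backgrounds in each, on the log2(FPKM + 1) scale as U2OS minus L929. They were named for their difference, so their number is no measure of how common such differences are.

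Among stress response genes, the difference was 3.08 for DDIT3, 3.22 for TRIB3, 1.57 for SESN2, 1.87 for SLC3A2, 1.22 for YARS and 1.24 for MARS where U2OS was higher, and -1.51 for DDIT4 where it was lower. Among immediate early and NF-kappaB genes, the difference was 2.49 for DUSP2 and 1.55 for NFKB1 where U2OS was higher, and -1.0 for KLF6 where it was lower. Among matrix, YAP, TGF-beta and Notch genes, the difference was 0.96 for COL6A1 and 1.05 for COL6A2 where U2OS was higher. It was lower in U2OS for CYR61 (-2.58), SMAD7 (-2.68), TGFBR1 (-1.63), F3 (-1.39), HES1 (-2.13) and LBH (-2.19). SOX9 (-2.30) and PHLDA1 (-2.02), which were named by response class, were lower too. Among cell cycle and cell death genes, the difference was 1.44 for NUF2, 1.5 for RFC5, 1.49 for CCNE1, 1.18 for UHRF1, 0.57 for DNMT1, 2.07 for WEE1 and 1.43 for BAK1 where U2OS was higher, and -1.40 for SPC24, -3.36 for PLK2 and -1.24 for MDM2 where it was lower. Among clock genes, the difference was 1.71 for PER1, 1.69 for PER2 and 1.55 for PER3 where U2OS was higher, and -0.99 for CLOCK where it was lower. Among folding genes, the difference was 1.36 for SYVN1, 1.33 for DNAJC3 and 1.12 for HSPB8 where U2OS was higher, and -1.60 for HSPH1, -1.57 for HSPA8 and -1.78 for DNAJB4 where it was lower.

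Among metabolic and ribosomal genes, the difference was 1.38 for HMGCS1, 1.49 for AGPAT2, 1.54 for PLIN3, 1.40 for OSGIN1, 1.08 for ODC1 and 1.11 for SLC30A1 where U2OS was higher, and -1.03 for SLC39A6, -1.41 for INSIG2, -1.72 for TXNRD1 and -0.48 for RPL7A where it was lower. Among autophagy and lysosome genes, the difference was 1.21 for MAP1LC3B, 1.22 for ATG12, 1.60 for TFEB and 1.24 for NAGLU where U2OS was higher, and -0.73 for GABARAPL1 where it was lower. Among immune genes, the difference was 1.86 for TAP1, 1.0 for PSMB8, 1.25 for IRF3 and 0.73 for MAVS where U2OS was higher, and -2.13 for DDX58 where it was lower. Among chromatin genes, the difference was -1.13 for ATF7IP and -0.72 for KDM1A where U2OS was lower. Among genes that responded in U2OS only, the difference was 2.54 for GPNMB, 2.41 for SPHK1, 2.32 for GAS2L3 and 2.27 for AVPI1 where U2OS was higher, and -2.77 for FOXS1, -2.26 for FAM120B, -1.77 for PYCRL and -1.75 for MED11 where it was lower. Among genes that responded in L929 only, the difference was 2.12 for MIIP, 2.07 for CAMSAP3, 1.96 for HCN2, 1.90 for NANP and 1.87 for SLC41A3 where U2OS was higher, and -2.25 for EFNB3 and -2.08 for FAM189B where it was lower. Among genes with opposite responses, the difference was 2.49 for NAA10, 2.05 for GLRX, 2.18 for DDX11 and 1.92 for ADORA2B where U2OS was higher, and -4.16 for LIN7B, -3.35 for ZMYM1, -2.77 for ENC1, -2.42 for PLAT and -2.17 for CCDC117 where it was lower.

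DDX11 has near-identical human copies. TAP1, PSMB8 and TXNRD1 are listed more than once in a table.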

How the results depend on the processing

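Only the pseudocount, the centring and leaving out a background can change the estimate of a gene. In these all 1900 called genes kept their sign. They were called on the same responses, so this was largely set by their selection. The other settings change only the error, the adjustment or the genes present, so a kept sign there tests nothing. The number called depends on which backgrounds give the error. Leaving out each background in turn gave 243 to 4095 differing genes (136 to 2355 higher and 107 to 1740 lower in U2OS), 757 to 5295 genes with a response in U2OS (505 to 2872 higher, 213 to 2423 lower) and 3211 to 5245 in L929. Leaving out a U2OS background leaves only the wider L929 spread, and the lone background is assumed to vary like the L929 pair; leaving out an L929 background does the reverse. Without the FPKM filter 782 genes were higher in U2OS, against 1222 with it; the cause was not tested. Of the 86 named called genes, 40 lost the call without the filter, 25 without Vector, 28 without ATG5.KD, 1 without cGAS KO, 1 with a pseudocount of 0.1, 2 with centring and 4 with a constant prior variance. None did so without cGAS WT, with robust eBayes, with weights or without short RNAs, nor did any of the 85 still present at FPKM of at least 5 or of the 83 still present without repeated symbols.

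With a pseudocount of 0.1, tried for the classes after seeing the data, 69 genes were lower in U2OS only, 42 and 50 were opposite with U2OS and L929 higher, and 92 were shared lower. At FPKM of at least 5 in each line, 44 were higher in L929 only. The construction of these settings, which enlarge ratios of low genes or drop low genes, moves these sizes. In the SETDB1 set 367 genes were called, against 175 at FPKM of at least 5 and 161 with no filter, and 241 to 371 on leaving out each library (241 without wild-type replicate 1 and 242 without replicate 2). With the replicate block the count was 446. The correlations of same-numbered libraries were 0.110, 0.125 and 0.085, so the numbers were not taken as pairs. The U2OS and L929 samples carry no replicate numbers.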
